A study of Mus musculus with 4 samples.

Results

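The Ikaros family genes IKZF1, IKZF2, IKZF3 and IKZF4, together with ZBTB16, which encodes PLZF, and ZBTB7B, which encodes ThPOK, were followed in 2 stimulated subsets of mouse CD4+ T cells. They were taken as the rows of the deposited tables whose gene symbol was a listed name, and all 6 were found among 38588 gene models per library. All 6 had enough reads to be tested. RbLoTem cells, sorted as CD62L-CD44+FoxP3-CD45RbLo effector/memory cells, were compared with RbHiTn cells, sorted as CD62L+CD44-FoxP3-CD45RbHi naive cells. All cells came from spleens of C57BL/6-Foxp3tm1Flv/J mice, which carry a red fluorescent reporter in Foxp3, and their age is not stated in the sources. Every library was prepared after 72 h in wells coated with anti-CD3 antibody, so neither subset was measured at rest. The labels give 2 μg of this antibody, and the methods of the study state its amount differently. Each subset had 2 libraries, of which 1 carries the suffix o in its label, with no meaning given, and paired values are stated for the library without the suffix and then for the one with it. No source states whether libraries of 1 subset were from separate cultures or mice, so the p-values reflect only how far these libraries differed, which may be technical.

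Ikaros family proteins are zinc-finger factors of lymphocytes that bind DNA through a cluster of fingers near the start of the protein and pair with each other through fingers near its end. IKZF1 encodes Ikaros, IKZF2 Helios, IKZF3 Aiolos and IKZF4 Eos, and Helios and Eos are best known from FoxP3+ regulatory T cells (Tregs). PLZF and ThPOK belong to another group, in which a POZ domain that recruits repressors is joined to zinc fingers. PLZF drives the innate-like program of NKT cells and other unconventional T cells, and ThPOK commits thymocytes to the CD4 lineage and keeps mature CD4+ cells in it.

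The DNA-binding fingers are a part that all Ikaros family proteins share, so the coding bases of the second of these fingers are shown for the 4 mouse genes to let their likeness be seen. They were taken from the GENCODE transcripts of mouse build GRCm38, in which this finger is coded by exon 5 of 8. Capitals mark bases that differ from Ikzf1.
Ikzf1 at chr11:11754024-11754086 (plus strand): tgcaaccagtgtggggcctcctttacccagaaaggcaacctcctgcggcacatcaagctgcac
Ikzf2 at chr1:69570581-69570643 (minus strand): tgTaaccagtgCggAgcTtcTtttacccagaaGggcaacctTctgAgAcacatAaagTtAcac
Ikzf3 at chr11:98488940-98489002 (minus strand): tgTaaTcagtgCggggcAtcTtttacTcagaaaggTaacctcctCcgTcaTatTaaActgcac
Ikzf4 at chr10:128640229-128640291 (minus strand): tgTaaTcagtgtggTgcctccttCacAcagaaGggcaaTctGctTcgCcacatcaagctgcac
Over these 63 bases Ikzf2 and Ikzf3 each differed from Ikzf1 at 12 positions and Ikzf4 at 10. The longest run of bases shared by the mouse transcripts of any 2 of the 6 genes was 32, between Ikzf2 and Ikzf4, and no window of 50 bases from a member occurred in another member.

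The deposited tables list human gene models with human positions for these mouse cells, and the build is not named in the files. A mouse transcript that differs from the human sequence can lose reads, so 0 reads does not show that a gene was silent, and levels of different genes are compared only per length and with caution. Reads within genes numbered between 4192083 and 6514106 per library, and between 89.8% and 90.5% of exon reads matched a single place. The libraries of 1 subset were not copies of each other, since chi-square divided by its degrees of freedom was 2.07 in RbLoTem and 2.06 in RbHiTn, and it lay between 24.6 and 34.6 for pairs of libraries across subsets. Of 11 T cell markers 9 had reads, and their summed level was 942 and 1003 CPM (counts scaled to library size) in RbLoTem and 1184 and 1124 CPM in RbHiTn, while CD3D and CD28 had no read. CD4 itself had 2 and 3 reads in RbLoTem and 4 and 1 in RbHiTn, and the CD8 genes CD8A and CD8B had none.

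All 6 genes differed between the subsets, 4 higher and 2 lower in RbLoTem. The tests used total exon reads in edgeR's quasi-likelihood test, with Benjamini-Hochberg adjusted p-values over 6539 gene models. Over all these models 24.3% were called higher and 23.6% lower at an adjusted p under 0.05, so calls were common in these libraries. IKZF2, IKZF3, IKZF4 and ZBTB16 were the members called higher, and IKZF1 and ZBTB7B were those called lower. IKZF2 and ZBTB16 passed the filter on low counts only through their RbLoTem libraries. The median log2 fold change was 0.67 over the 6 members and -0.012 over all models tested. For each of the 6 genes the 2 RbLoTem values lay wholly above or wholly below the 2 RbHiTn values. With 2 libraries per subset such separation carries little weight. It was also seen for genes that were not called, such as MTA2 and CTBP1, and its share over all models was not counted. In RNA from a whole sorted population, fewer cells expressing a gene and less RNA of it per cell cannot be told apart.

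**Figure D1:**
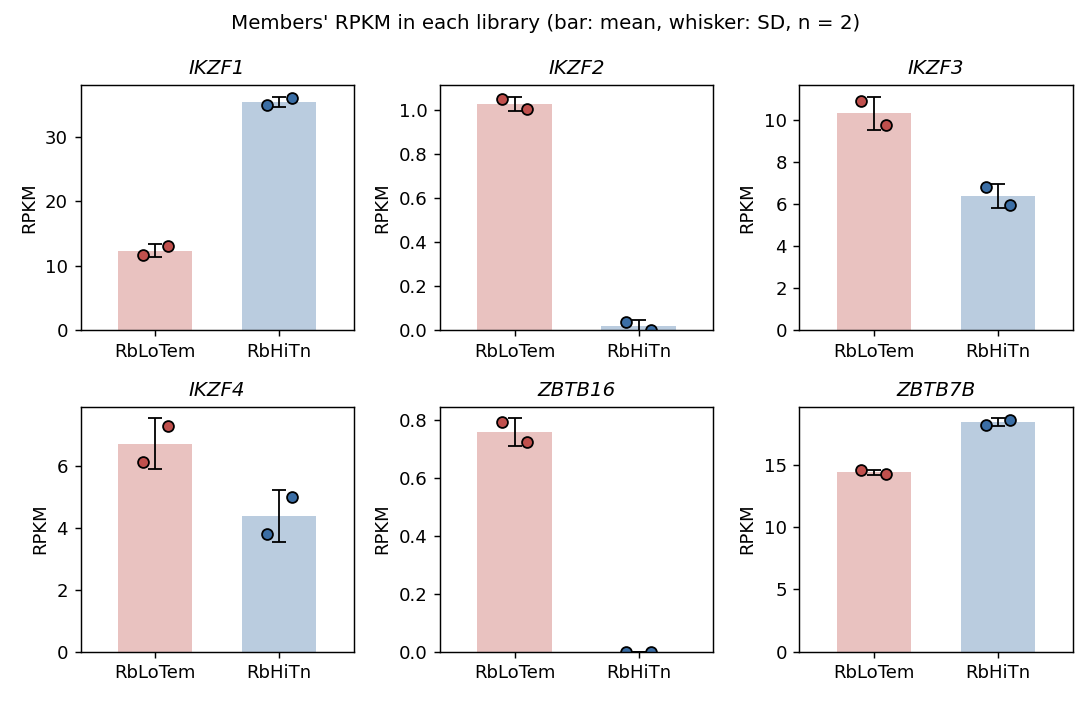
RPKM of the 6 genes in each library, with RbLoTem on the left and RbHiTn on the right of each panel; points are libraries, bars are means and whiskers are the SD (n = 2). The vertical scales differ between panels, and IKZF1 reached 36.0 RPKM in RbHiTn whereas IKZF2 and ZBTB16 stayed near or under 1.05 RPKM.

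Ikaros itself was the member with the most reads, and it was markedly lower in RbLoTem. The IKZF1 model, on human chromosome 7 from 50344378 to 50472799 with 9494 bases of exon, had 513 and 796 exon reads in RbLoTem and 2156 and 1433 in RbHiTn. Expressed as RPKM, which scales reads by exon length in kb and by the reads that the library had in genes, it stood at 11.6 and 13.0 in RbLoTem and at 34.9 and 36.0 in RbHiTn. Every RbLoTem value was thus far under every RbHiTn value, and the 2 libraries of each subset lay close together. The means were 12.3 ± 1.04 RPKM in RbLoTem and 35.4 ± 0.809 RPKM in RbHiTn (SD, n = 2 each). The log2 fold change was -1.51 ± 0.07 (SE), edgeR adjusted p = 2.3e-18, and only 3.64% of tested models had a lower one. In reads per effective library size the ratio of RbLoTem to RbHiTn was 0.353 (exact 95% counting interval 0.331 to 0.376). All IKZF1 reads matched a single place. The share of its reads that spanned an exon junction was 67.4% (64.8 to 69.9) in RbLoTem and 66.5% (64.9 to 68.0) in RbHiTn, so the fall in reads was not accompanied by a different share of spliced reads beyond counting error.

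B cells and myeloid cells also transcribe IKZF1, and the tested genes on their marker lists moved in the same direction. Of 12 B cell markers 7 had reads and 5 were tested, and all 5 were lower in RbLoTem, including EBF1, BLK, MS4A1 and CD79A. The summed level of the B cell list was 1.90 and 2.06 CPM in RbLoTem and 31.5 and 32.0 CPM in RbHiTn. CD79A, MS4A1 and BLK had no read in RbLoTem, and CD79B, CD22 and FCRLA had none in any library. Without the RbHiTn library lacking the suffix, 3 B cell markers were called lower, because MS4A1 and BLK were no longer tested. Of 11 monocyte, macrophage and dendritic cell markers 5 had reads and the 4 tested, SPI1, CTSS, HLA-DQA1 and CD74, were all lower, at a summed 2.84 and 3.61 CPM in RbLoTem and 48.2 and 40.4 CPM in RbHiTn. CSF1R, CD14, LYZ, ITGAX and HLA-DRA had no read in any library, and ITGAM had 1 read, in RbHiTn. Whether the reads of the 4 tested genes came from myeloid cells or from B cells was not tested. IKZF1 was at 121.5 and 137.0 CPM in RbLoTem and 367.1 and 373.1 CPM in RbHiTn. Markers without a read may be missed by the human models, so the marker sums cannot be weighed against this level. The part of B cells and myeloid cells in the lower IKZF1 reads was not tested.

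Aiolos and Eos moved the other way from Ikaros, by smaller amounts. The IKZF3 model, on human chromosome 17 from 37921537 to 38020441, had 124 and 153 reads in RbLoTem and 108 and 61 in RbHiTn. This gave 10.9 and 9.75 RPKM in RbLoTem and 6.80 and 5.97 RPKM in RbHiTn, so the subsets did not overlap once depth was taken into account, although the read numbers themselves lay close. The log2 fold change was 0.67 ± 0.15 (SE), edgeR adjusted p = 5.1e-04, and the ratio of reads was 1.59 (1.31 to 1.93). IKZF3, like IKZF1, is also a gene of B cells, whose tested markers were lower in RbLoTem. Plasma cells express it as well, and of 3 plasma cell marker models only SDC1, the gene of syndecan-1, had reads, with 6 and 11 in RbLoTem and 2 and 2 in RbHiTn, too few for the test. The part of B cells or plasma cells in the IKZF3 reads was not tested. The IKZF4 model, on human chromosome 12 from 56401443 to 56432219, had 195 and 319 reads in RbLoTem and 168 and 142 in RbHiTn. Its RPKM was 6.13 and 7.28 in RbLoTem and 3.79 and 4.98 in RbHiTn, with a mean of 6.71 ± 0.818 in RbLoTem and 4.38 ± 0.840 in RbHiTn (SD, n = 2 each), so replicates lay farther apart for their level than those of IKZF1 or ZBTB7B, and the subsets still did not overlap. The log2 fold change of IKZF4 was 0.66 ± 0.13 (SE), edgeR adjusted p = 8.2e-05, with a ratio of 1.61 (1.39 to 1.85). All reads of both genes matched a single place. Neither change passed when tested against a log2 fold change of 1, and leaving out single libraries gave log2 fold changes of 0.60 to 0.79 for IKZF3 and 0.45 to 0.84 for IKZF4, all still called.

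Helios had few reads, nearly all of them in RbLoTem. The IKZF2 model, on human chromosome 2 from 213864429 to 214017151 with 12220 bases of exon, had 60 and 79 reads in RbLoTem and 3 and 0 in RbHiTn. That is 1.05 and 1.01 RPKM in RbLoTem and 0.0377 and 0 RPKM in RbHiTn, an almost complete separation of the subsets. The ratio of reads was 44.9, with a wide counting interval of 15.0 to 220.2, and edgeR gave a log2 fold change of 5.38 ± 0.46 (SE), edgeR adjusted p = 1.9e-11. The p-value adds little to the counts, since IKZF2 passed the filter on low counts through RbLoTem alone. The fitted value rested on the 3 reads in RbHiTn. It was 9.0 when the RbHiTn library that holds them was left out, which leaves no read in that subset, and 4.71 without the other RbHiTn library.

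IKZF2 was also the only member with reads that matched more than 1 place. In RbLoTem 21 and 35 of its reads were unique, or 40.3% (32.1 to 48.9), and in RbHiTn 1 and 0. From unique reads alone the ratio was 54.2 (9.34 to 2179), so the direction did not rest on the shared reads. Reads spanning an exon junction of IKZF2 numbered 15 and 28 in RbLoTem and 1 and 0 in RbHiTn, which places part of the signal on spliced RNA. Of the 50-base windows of the mouse Ikzf2 transcript 1.05% also occurred in a transcript of 1 other gene, which was not a member, and the share was 0.75% for Zbtb16, 0.647% for Ikzf4, 0.473% for Zbtb7b and 0 for Ikzf1 and Ikzf3. All reads of those 5 members matched a single place. Shared windows were thus not particular to Ikzf2. They are exact matches between mouse transcripts, whereas the reads were counted on human models, so the read classes cannot be derived from them. The 33 shared windows of Ikzf4 and the 38 of Zbtb16 lay wholly after the coding bases and occurred in 88 and 119 other genes. None of the 97 of Ikzf2 or the 18 of Zbtb7b lay wholly after the coding bases. The source of the multiply matching reads of IKZF2 was not tested.

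**Figure D2:**
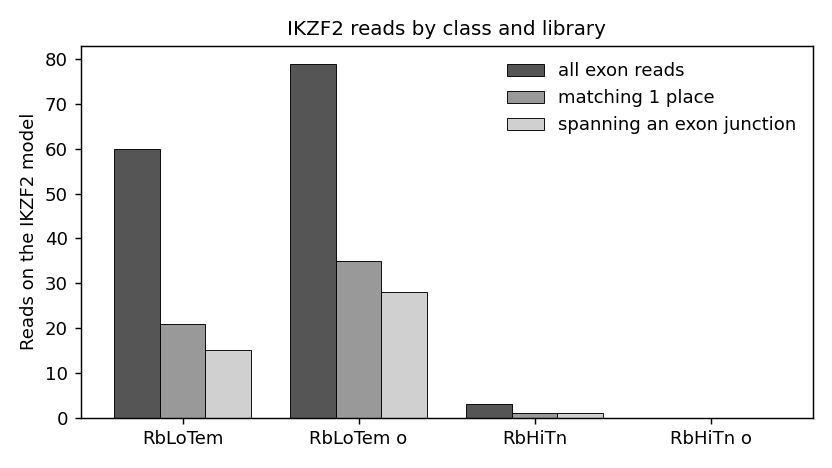
IKZF2 reads in each of the 4 libraries, RbLoTem first, with bars for all exon reads, reads matching a single place and reads spanning an exon junction. All 3 classes were high in both RbLoTem libraries (60 and 79 exon reads) and at or near 0 in RbHiTn (3 and 0).

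Helios and Eos are high in Tregs, which the sort on the Foxp3 reporter was meant to leave out, and FOXP3 and IL2RA are not among the models used here. The 3 other Treg markers, CTLA4, GPR83 and LRRC32, summed to 48.8 and 54.0 CPM in RbLoTem and 49.2 and 53.1 CPM in RbHiTn, so this total was alike in both subsets. Its parts were not. CTLA4, which encodes an inhibitory receptor, was higher with a log2 fold change of 0.37 ± 0.12 (SE), edgeR adjusted p = 0.011, a call lost with DESeq2 (adjusted p = 0.17), without the RbLoTem library with the suffix (0.093) and without the RbHiTn library lacking it (0.23). LRRC32, which encodes the Treg surface protein GARP, had 0 reads in both RbLoTem libraries and 10 and 2 in RbHiTn. GPR83, a receptor gene high in Tregs, had 3 and 13 reads in RbLoTem and 66 and 40 in RbHiTn. On the wider list of 13 Treg genes around Helios and Eos 3 were tested, CTLA4 (higher), GPR83 and SWAP70 (both lower). TNFRSF18, TNFRSF4, ICOS, TIGIT and ITGAE had no read in any library. SWAP70 is also a gene of B cells, whose tested markers were lower in RbLoTem, and their part in it was not tested. Activated conventional T cells can also express Helios and CTLA4, and the part of Tregs in the IKZF2 and IKZF4 reads was not tested.

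The make-up of the Ikaros family differed between the subsets. Summed over the 4 genes the level was 29.6 and 31.1 RPKM in RbLoTem and 45.5 and 46.9 RPKM in RbHiTn. Ikaros made up 39.0% and 41.9% of that sum in RbLoTem and 76.6% and 76.7% in RbHiTn. Aiolos held 36.7% and 31.4% in RbLoTem against 14.9% and 12.7% in RbHiTn. Eos accounted for 20.7% and 23.4% in RbLoTem against 8.33% and 10.6% in RbHiTn. Helios stayed a minor part, with 3.55% and 3.23% in RbLoTem against 0.0829% and 0% in RbHiTn. In RbLoTem, the order from high to low was Ikaros, Aiolos, Eos and Helios, and the Ikaros to Aiolos ratio of RPKM was only 1.06 and 1.34. In RbHiTn the order was the same, with a ratio of 5.13 and 6.04. These shares set human models of different length side by side, and IKZF3 had the shortest model, with 2439 bases of exon, so the percentages may shift with how much of each mouse transcript the model catches, whereas the difference between subsets uses the same models in every library.

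**Figure D3:**
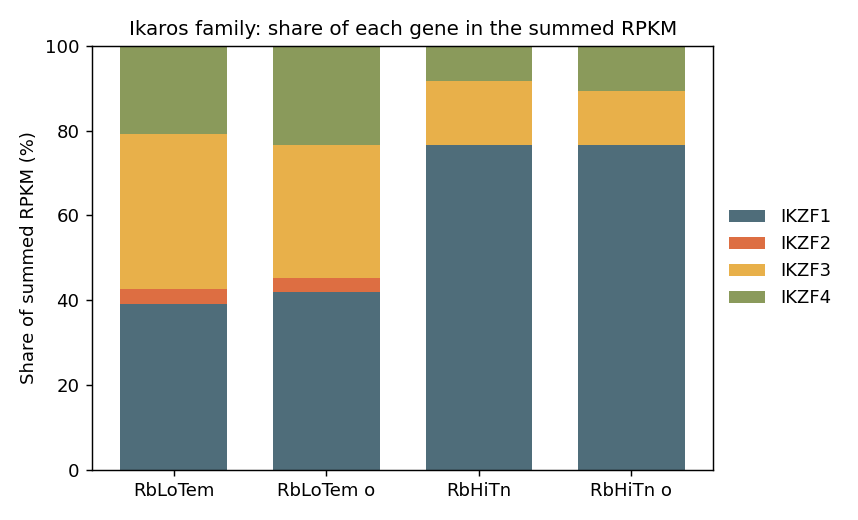
Share of IKZF1, IKZF2, IKZF3 and IKZF4 in their summed RPKM (%), stacked for each library with RbLoTem on the left. IKZF1 takes 39.0% and 41.9% of the bar in RbLoTem and 76.6% and 76.7% in RbHiTn.

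PLZF was read only in RbLoTem. The ZBTB16 model, on human chromosome 11 from 113930447 to 114121374 with 6216 bases of exon, had 23 and 29 reads in RbLoTem and 0 in both RbHiTn libraries, or 0.792 and 0.725 RPKM in RbLoTem. Against a floor of 3 reads over the RbHiTn libraries it was at least 16.8-fold higher in RbLoTem, with an adjusted p of 3.9e-08 from edgeR. That p-value adds little to the counts, since ZBTB16 passed the filter on low counts through RbLoTem alone. All 52 reads matched a single place and 44.2% (30.5 to 58.7) of them spanned an exon junction. The level was low on this scale, since 68.6% and 67.9% of the models with any read in the 2 RbLoTem libraries had a higher RPKM. Innate lymphocytes can transcribe ZBTB16 too. The 7 NK marker models had 0 and 1 reads in RbLoTem and 0 and 1 in RbHiTn, with NCR1, KLRD1, KLRK1, GZMA, FCGR3A and TYROBP at 0 throughout. The T cell genes CD3D and CD28 had no read either, so such zeros say little about which cells were present. The part of NK, NKT or other innate-like cells in the ZBTB16 reads was not tested.

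ThPOK was present in both subsets and was modestly lower in RbLoTem. The ZBTB7B model, on human chromosome 1 from 154975127 to 154990998, had 288 and 389 reads in RbLoTem and 502 and 331 in RbHiTn. The corresponding RPKM values were 14.5 and 14.3 in RbLoTem and 18.2 and 18.6 in RbHiTn, with hardly any spread within a subset. Its log2 fold change was -0.35 ± 0.09 (SE), edgeR adjusted p = 0.0022, a ratio of 0.787 (0.710 to 0.872). Among all tested models 24.4% had a lower log2 fold change, so ThPOK was well inside the range of the other genes. T cell markers moved in part the same way, since of 8 tested 3 were lower, the receptor subunits CD3G (log2 fold change -1.10) and CD3E (-0.93) and the kinase LCK (-0.26), and none was higher, and the part of T cell content in the ZBTB7B reads was not tested. The ZBTB7B call was lost with DESeq2 (adjusted p = 0.088) and against a log2 fold change of 1. ZBTB7B had the highest RPKM of the 6 genes in RbLoTem, and in RbHiTn it came after IKZF1 only.

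**Figure D4:**
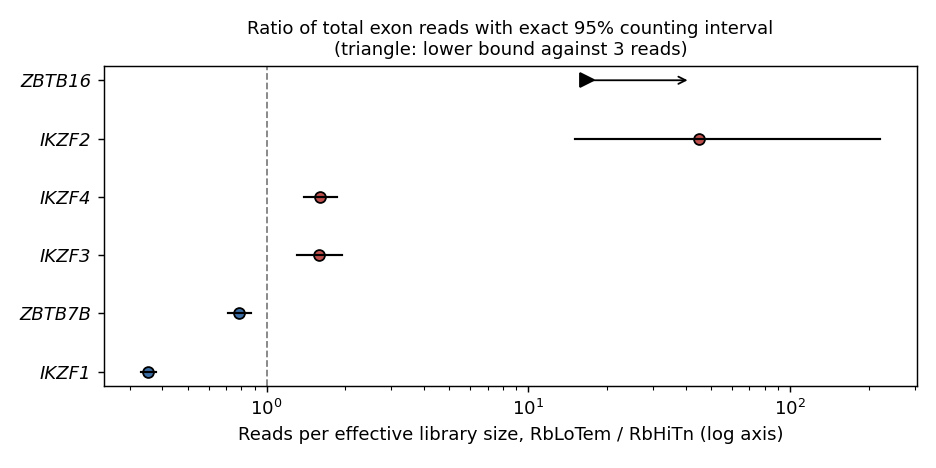
Ratio of total exon reads per effective library size, RbLoTem over RbHiTn, on a log axis; points are ratios and lines the exact 95% counting intervals, and the triangle for ZBTB16 is a lower bound of 16.8 against 3 reads. IKZF1 (0.353) and ZBTB7B (0.787) lie left of the dashed line at equal levels and the other 4 genes lie right of it, with intervals that do not cross it.

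The mouse promoters of the members, where listed, were searched for the core of the Ikaros site, TGGGAA, and of the RUNX site, TGTGGT, on both strands. The RefSeq promoter table (GRCm38.p6) held 2 starts each for Ikzf1 and Zbtb7b and none for the other members. Of the 4 windows of 250 bases upstream of these starts, 1 of Zbtb7b held TGGGAA, 1 of Zbtb7b held TGTGGT and those of Ikzf1 held neither, while 21.6% and 14.0% of 32851 such windows of all genes held TGGGAA and TGTGGT. The 2 Zbtb7b windows are shown because they held these matches, which are in capitals.
Zbtb7b, chr3:89393379-89393628 (minus strand): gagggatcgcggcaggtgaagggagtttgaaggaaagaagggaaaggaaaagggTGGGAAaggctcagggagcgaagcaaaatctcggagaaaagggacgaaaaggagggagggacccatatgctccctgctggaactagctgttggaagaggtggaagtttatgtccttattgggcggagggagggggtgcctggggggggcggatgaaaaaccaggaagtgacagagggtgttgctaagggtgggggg
Zbtb7b, chr3:89387672-89387921 (minus strand): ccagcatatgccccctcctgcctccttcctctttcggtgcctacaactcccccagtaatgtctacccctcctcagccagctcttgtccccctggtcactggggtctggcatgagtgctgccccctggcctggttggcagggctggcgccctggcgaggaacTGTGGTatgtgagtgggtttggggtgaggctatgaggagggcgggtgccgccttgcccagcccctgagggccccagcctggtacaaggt
No binding was measured here, and a match describes only the letters in the window.

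Other POZ factors did not move as a group. On the list of 9 POZ genes, which includes both members, 8 were tested, 2 were higher, 3 were lower and 3 were not called. ZBTB7A, which encodes LRF, the closest relative of ThPOK, was at 7.03 and 7.77 RPKM in RbLoTem and 4.99 and 4.88 RPKM in RbHiTn, a log2 fold change of 0.60 ± 0.12 (SE), edgeR adjusted p = 1.4e-04. ThPOK and LRF thus changed in opposite directions. BCL6, the repressor that directs follicular helper T cells, had 48 and 83 reads in RbLoTem and 135 and 88 in RbHiTn, a log2 fold change of -0.82 ± 0.17 (SE). BCL6 is also a gene of B cells, whose markers were lower in RbLoTem, and their part in it was not tested. ZBTB20, a repressor gene of few reads, had 7 and 6 in RbLoTem and 22 and 8 in RbHiTn (adjusted p = 0.034 from edgeR), and its call was lost with DESeq2 (0.42) and without either RbLoTem library (0.065 and 0.32), and without the RbHiTn library lacking the suffix it was not tested. ZBTB17, ZBTB32 and ZBTB1 had log2 fold changes of 0.21, -0.04 and -0.22 and were not called.

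Ikaros proteins act largely through the NuRD complex, which joins the remodellers Mi-2α (CHD3) and Mi-2β (CHD4) to histone deacetylases, and through SIN3 and CtBP corepressors. Of 17 such genes 14 had a model and were tested, and 3 were higher and 5 lower in RbLoTem, with a median log2 fold change of -0.12. CHD3 stood out within the list, with 31.8 and 33.8 RPKM in RbLoTem and 78.7 and 86.9 RPKM in RbHiTn, a log2 fold change of -1.32 ± 0.06 (SE), edgeR adjusted p = 1.1e-18. CHD4, its paralog and the main ATPase of NuRD in lymphocytes, was at 219.8 ± 1.85 RPKM in RbLoTem and 260.1 ± 9.20 RPKM in RbHiTn (SD, n = 2 each), a log2 fold change of only -0.23 ± 0.05 (SE). SIN3A, a scaffold of deacetylase complexes, had a log2 fold change of -0.42 ± 0.06 (SE), and RBBP4, a histone-binding subunit, of -0.35 ± 0.05 (SE). MTA1 was lower as well by edgeR, at -0.21 ± 0.06 (SE), and was not called by DESeq2 (adjusted p = 0.063). The deacetylase genes HDAC2 and HDAC1 were higher, by 0.37 ± 0.06 (SE) and 0.26 ± 0.05 (SE) on the log2 scale. GATAD2A, a linker subunit of NuRD, was also called higher, at 0.67 ± 0.17 (SE), a call lost with DESeq2 (adjusted p = 0.076). MTA2, MTA3, MBD3, GATAD2B, SIN3B and CTBP1 were not called.

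The ligases that act on these factors were measured in part. Cereblon, the product of CRBN, is the receptor through which lenalidomide-type drugs send human Ikaros and Aiolos to degradation, and CUL3 forms ligases with POZ proteins, among them PLZF. CRBN had 248 and 290 reads in RbLoTem and 354 and 247 in RbHiTn and was not called (log2 fold change -0.20, adjusted p = 0.13 from edgeR). DDB1, the adaptor that joins cereblon to the cullin, was at 206 ± 1.05 RPKM in RbLoTem and 117 ± 0.883 RPKM in RbHiTn, a log2 fold change of 0.82 ± 0.05 (SE), edgeR adjusted p = 3.4e-16. CUL3 had a log2 fold change of -0.15 ± 0.05 (SE), edgeR adjusted p = 0.019, and its call was lost with DESeq2 (0.096) and without any of 3 libraries, namely the RbLoTem library with the suffix (0.25) and each RbHiTn library (0.063 and 0.093). CUL4A, CUL4B and RBX1 were not analysed here.

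Genes that surround ThPOK in the choice between the CD4 and CD8 lineages were mostly lower in RbLoTem. Of 14 listed genes 9 were tested, 7 were lower and 2 higher, with a median log2 fold change of -0.79. TOX, an HMG-box factor that thymocytes need to become CD4 cells, had 35 and 55 reads in RbLoTem and 375 and 239 in RbHiTn, the largest fall on the list at -2.81 ± 0.15 (SE), edgeR adjusted p = 1.2e-16. The HMG-box factors TCF7 and LEF1, which act upstream of ThPOK in the thymus, were lower too, with LEF1 at 18.4 and 17.3 RPKM in RbLoTem and 45.4 and 43.6 RPKM in RbHiTn, and TCF7 at 299 and 394 reads in RbLoTem and 1567 and 1001 in RbHiTn. MYB, another early factor of that choice, had a log2 fold change of -1.08 ± 0.11 (SE). BCL11B, MAZ and CBFB were the other genes called lower. MAZ is in the counts and the median of this list, but it is not the gene of the ThPOK repressor MAZR, which is PATZ1. RUNX3, the factor that opposes ThPOK in CD8 cells, was higher in RbLoTem, with 181 and 299 reads there and 92 and 58 in RbHiTn, a log2 fold change of 1.62 ± 0.14 (SE), edgeR adjusted p = 4.6e-11. SATB1, a chromatin organiser, was the other gene called higher, at 104 and 105 RPKM in RbLoTem and 52.9 and 52.3 RPKM in RbHiTn. The reads of RUNX3 and ZBTB7B thus differed between the subsets in opposite directions, and neither CD8A nor CD8B had a read.

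**Figure D5:**
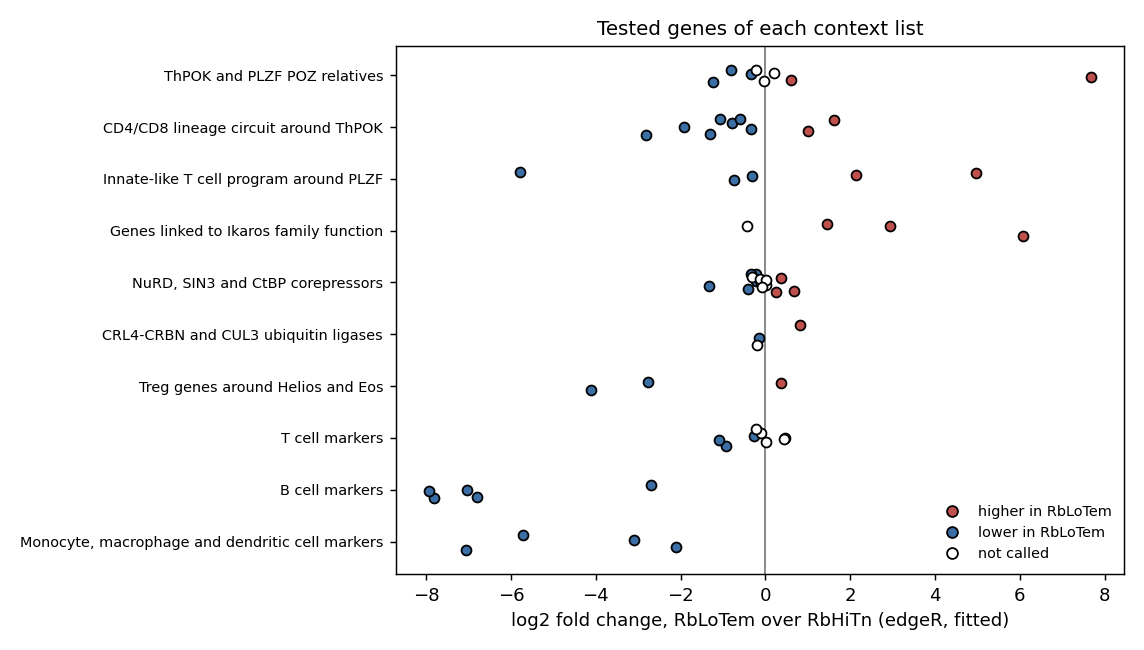
Fitted log2 fold change (RbLoTem over RbHiTn) of every tested gene on each list, with red for genes called higher, blue for genes called lower and white for genes not called; small vertical offsets only separate points, and for genes with no read in a subset (such as ZBTB16 and CD79A) the position depends on edgeR's prior count. ZBTB16 and ZBTB7B are included in the POZ list, where ZBTB16 is the point farthest to the right, and all tested B cell and myeloid markers lie left of 0.

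Among genes linked to Ikaros family function, such as Notch targets and cytokine genes, 8 of 12 had a model, 7 had reads and 4 could be tested. DTX1, a Notch target, had 26 and 31 reads in RbLoTem and 5 and 2 in RbHiTn, a ratio of 7.88 (3.59 to 20.5) and a log2 fold change of 2.94 ± 0.46 (SE), edgeR adjusted p = 2.9e-06. PRDM1, the gene of Blimp-1, was read almost only in RbLoTem, with 85 and 143 reads there and 1 and 2 in RbHiTn. CDKN1B, the cell-cycle inhibitor p27, had 41 and 85 reads in RbLoTem and 82 and 79 in RbHiTn and was not called (adjusted p = 0.097), although 4 of the alternatives called it lower. HES1, IL7R and IL10 had 8 or fewer reads per subset and IL2 had none. IL10 was read in RbLoTem only, with 2 and 6 reads.

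The innate-like genes set around PLZF showed no common direction. Of 16 listed genes 13 had a model and 5 were tested, of which ID2 and MAF were higher and ID3, FYN and EGR1 lower. The inhibitors of E proteins moved apart, with ID2 at 175 and 176 RPKM in RbLoTem and 40.2 and 39.4 RPKM in RbHiTn. ID3 had 0 and 1 reads in RbLoTem against 38 and 29 in RbHiTn. FYN, a Src-family kinase that NKT cells need, had a log2 fold change of -0.73 ± 0.05 (SE), edgeR adjusted p = 2.4e-13. EGR1, which with EGR2 induces PLZF in developing NKT cells, was at -0.33 ± 0.09 (SE), edgeR adjusted p = 0.0043, and it was not called by DESeq2 (0.12) or without the RbHiTn library lacking the suffix (0.075). SLAMF6, IL12RB1, IL23R and CCR6 had no read in any library, and SLAMF1, IL18R1, IL18RAP and CXCR6 had at most 9 per subset.

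The genes whose levels over the 4 libraries ran closest to those of each member were found from log2 CPM centred on each gene's mean, where a smaller Euclidean distance means a closer profile. With 4 libraries in 2 subsets, the distance reflects little beyond a like difference between subsets and is given as a description. For IKZF1 these were CBLB, a ubiquitin ligase gene that restrains T cell activation (distance 0.0438), PRKACB, a catalytic subunit of protein kinase A, and KLHL24. For ZBTB7B they were BTF3L4 (0.0141), ANKRD13C and RBBP4, which is also on the NuRD list. For IKZF3 the nearest was CDC25A, a cell-cycle phosphatase gene (0.0315), followed by SFMBT1 and ACTR3B, and for IKZF4 it was ZNF830 (0.0594), with APPL2 also among its 3 nearest. The profile of IKZF2 lay nearest to LGALS3, the gene of galectin-3 (0.225), then S100A4 and OSR2. ZBTB16 lay nearest to WISP1 (0.0824), GATM and EPN2.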

How the data were processed

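RNA of 2 RbLoTem and 2 RbHiTn libraries was analysed from 1 deposited table per library. The methods of the study name Trimmomatic, TopHat with mm10 and Gencode vM4, htseq-count, RPKM in R and DESeq2, and the submitters' processing notes list these tools. The deposited read counts of the authors come in tables of human gene models instead. How reads were aligned and annotated for these tables, and whether strand was used, is not given in the sources, so antisense or paralog reads cannot be separated. The deposited RPKM values, also made by the authors, were checked to equal total exon reads scaled by exon length and by the library's total gene reads. No columns of the authors' own comparisons were used.

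Total exon reads were tested in edgeR 4.0.16 under R 4.3.3 (TMM, filterByExpr, quasi-likelihood test, no covariate, adjusted p under 0.05). The SE is the log2 fold change divided by the square root of F, and it can be too small at low counts. Alternatives were DESeq2 1.42.0, limma 3.58.1 on RPKM with 0.1 or 1 added before the log2, edgeR with RLE or library size scaling, no filter, unique exon reads, all gene reads, glmTreat at a log2 fold change of 1, the suffix as a block, and each library left out. The code was tested on simulated data. Ratio intervals (95%) are exact and, like the floor of 3 reads over a group, cover counting error only.

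The members, gene lists and rules were chosen with earlier results of these data known. Named genes are the members, up to 6 called genes per list with the largest change and no overlap between subsets, every gene of lists of 6 or fewer, and the 3 nearest profiles per member. A few genes met this rule but are not reported here, and other genes were named after their values were seen. Mouse sequences came from GENCODE vM21 (GRCm38) and RefSeq (GRCm38.p6). Matching of windows and motifs was by exact letters. IKZF5 was not analysed here.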

Additional observations from a re-analysis of the deposited data

How the results depend on the processing

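The direction of all 6 members was kept under each of the 14 alternatives, and IKZF1, IKZF2 and ZBTB16 kept their call under all of them. With DESeq2, 1078 gene models were higher and 936 lower, against 1592 and 1545 with edgeR, and 1 member (IKZF1) was lower. Against a log2 fold change of 1, edgeR called 273 models higher and 227 lower, with 2 members higher and 1 lower, and the log2 fold changes of 0.67 (IKZF3), 0.66 (IKZF4) and -0.35 (ZBTB7B) did not pass. With each library left out in turn, between 1237 and 1483 models were higher and between 1217 and 1381 lower, and every member kept its call. The suffix in the labels does not pair the libraries by any stated source, and deviations of libraries with the same suffix correlated at -0.015. With a replicate block on the suffix 1562 models were higher and 1530 lower, and no member's call changed, while ZBTB20 lost its call and CDKN1B gained one. Library size scaling moved the median log2 fold change of all models to -0.035. The log2 fold changes of IKZF2 and ZBTB16 after adding 1 RPKM were 0.99 and 0.81, since both lie near or under that constant. Of the listed-gene counts and member values, 464 stayed the same, stayed within 1.5 times or kept their call. A further 36 counts moved by over 1.5 times or to or from 0, and 4 values were no longer called. Of the counts over all models and over the members, 50 stayed the same or within 1.5 times and 6 moved. At this depth IL10, with 8 reads in RbLoTem, and LRRC32, with 12 in RbHiTn, did not pass the filter on low counts and were not tested.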
